A study of Danio rerio with 20 samples.

Results

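The binding of Raraa, a retinoic acid receptor, was compared in gastrula-stage zebrafish embryos with and without added all-trans retinoic acid (atRA). A site was counted for a group when peaks of both of its replicate libraries, on the 25 assembled chromosomes, overlapped by at least 1 bp, and the connected peaks were then merged. This gave 29678 sites with atRA and 7918 sites in controls. Sites of the groups that overlapped by at least 1 bp were called shared, which left 33414 distinct sites, of 124012 merged sites in the whole series.

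The atRA group consisted of wild-type whole embryos exposed to 0.1 µM atRA from 30% epiboly and collected at 80% epiboly, a stage of gastrulation. The control group consisted of untreated wild-type whole embryos of the same stage. The labels do not say whether controls received a vehicle, and they do not name a strain beyond wild-type. Each group had 2 libraries, prepared by ChIPmentation, in which chromatin fragments of about 300 bp are bound to an antibody and the bead-bound DNA is then cut and given sequencing adapters by Tn5 transposase. The antibody is labelled RARaa in all 4 libraries. The labels do not say that replicates came from separate clutches, so the spread between them may be technical.

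Retinoic acid receptors are nuclear receptors that bind DNA as heterodimers with retinoid X receptors, at retinoic acid response elements. In the textbook account they recruit corepressors in the absence of the ligand and coactivators in its presence, so that the receptor can sit on DNA in either state. In the gastrula, retinoic acid made in the paraxial mesoderm patterns the hindbrain and the anterior-posterior axis, and excess ligand shifts anterior structures to a posterior fate. Whole embryos were used, so a site bound in few cells cannot be told apart from one bound weakly in many.

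The series also holds libraries for Hoxb1b, Meis2b and Sox3 at 80% epiboly with and without atRA, and for Raraa in untreated embryos of 5 somites and of 24 hours post fertilisation (24 hpf). Its 20 libraries fall into 10 groups of 2. Stages were taken from the titles, since the treatment text names 80% epiboly for the later stages too, and the 2 Sox3 control lists both number their peaks as replicate 2. The files are peak lists without read counts, so the number of reads behind each library is unknown. The background, recovered from the authors' fold enrichment and p of each peak, served as an index of depth. It was 2.17 and 0.606 fragments covering a base in atRA replicates 1 and 2, and 0.394 and 0.927 in control replicates 1 and 2.

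The 4 lists differed more between replicates than between treatments. Peaks on the assembled chromosomes numbered 254915 and 59938 in atRA replicates 1 and 2, against 23920 and 131936 in control replicates 1 and 2. The groups overlapped, since atRA replicate 2 held fewer peaks than control replicate 2. The log2 ratio of peak number was 1.14, a difference smaller than the replicate spread (two-sided exact permutation test over 6 arrangements, p = 0.667, adjusted over 4 tests 0.889). A comparison of 2 libraries with 2 cannot give a two-sided p under 0.33. Without control replicate 1 the log2 ratio was -0.0941, and without atRA replicate 1 it was 0.0935. The number of sites of a group is capped by its shorter list. Own sites took in 12% and 51.5% of the peaks of atRA replicates 1 and 2, against 34.1% and 6.13% of the peaks of control replicates 1 and 2.

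Most Raraa sites were called with atRA alone. Of the 33414 distinct sites, 25545 were atRA-only (76.4%), 4133 were shared (12.4%) and 3736 were control-only (11.2%). As a share of each group, the shared sites made up 13.9% of the atRA sites and 52.8% of the control sites, where they counted as 4182 because some merged differently. Being absent as a site of the other group was often the lack of a peak in 1 of its libraries. Of the atRA-only sites, 10852 (42.5%) held a peak of control replicate 2 alone and 1075 (4.21%) a peak of control replicate 1 alone. A further 310 (1.21%) held peaks of both controls that did not overlap each other, and 13308 (52.1%) held no control peak. Of the control-only sites, 2407 (64.4%) held a peak of atRA replicate 1 alone, 107 (2.86%) one of atRA replicate 2 alone, and 31 (0.830%) non-overlapping peaks of both. The remaining 1191 (31.9%) held no atRA peak.

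Set out by library, the calls show how few positions all lists agreed on. Merging the peaks of the 4 libraries gave 355174 regions, of which 4452 (1.25%) held a peak of every library. This percent is bounded by list length, since control replicate 1 held 23920 peaks and no more regions than that could hold every library. A peak of both atRA libraries and of neither control was found in 13308 regions (3.75%), and a peak of both controls and of neither atRA library in 1191 regions (0.335%). Regions with a peak of atRA replicate 1 alone numbered 172535, those of control replicate 2 alone 63758, those of atRA replicate 2 alone 25208 and those of control replicate 1 alone 10016. The largest combination of several libraries was atRA replicate 1 with control replicate 2, the longest list of each treatment, at 42782 regions. The plot of regions by library combination gives all 15 combinations.

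**Figure D1:**
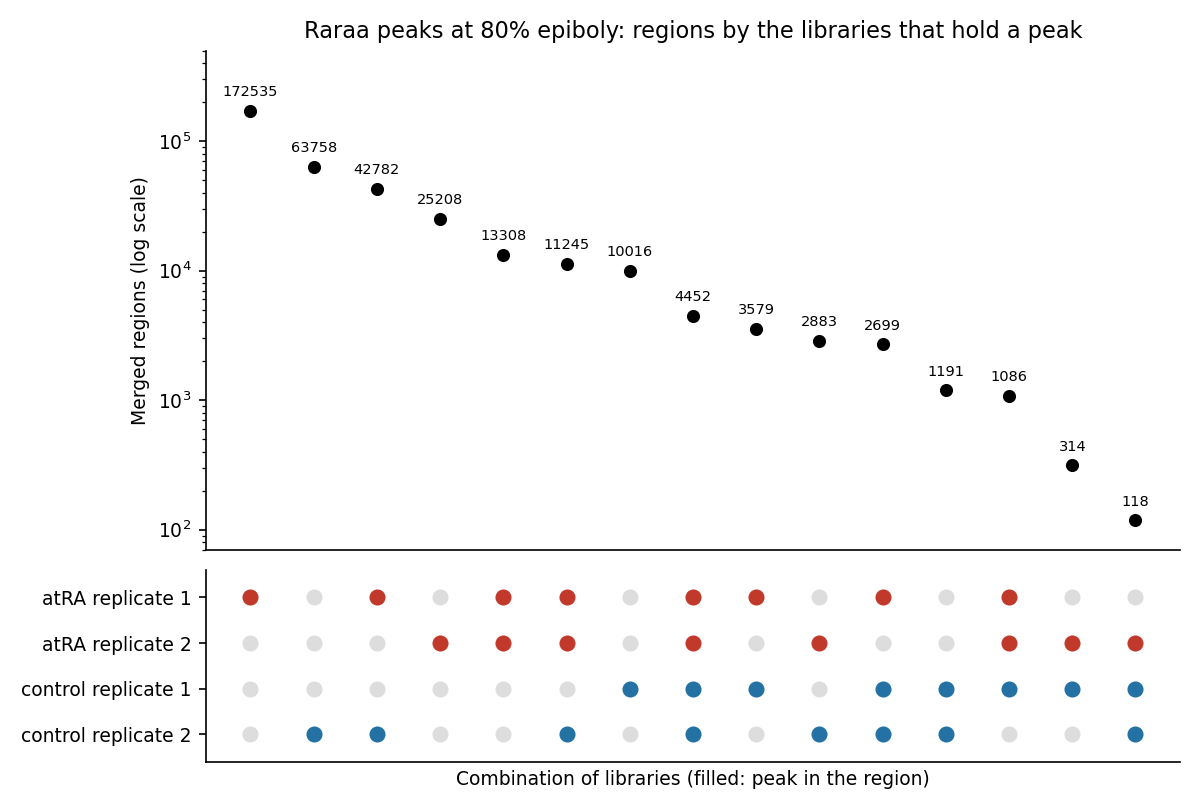
Number of merged regions (log scale) for each combination of the 4 Raraa libraries at 80% epiboly that hold a peak in the region, with filled dots marking the libraries. Regions of 1 long list lead, with 172535 for atRA replicate 1 alone, while 4452 regions hold a peak in all 4 libraries.

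Pileups were also scaled between libraries by their backgrounds, and the part of depth in these counts was not tested. For the 13308 atRA-only sites without a control peak, the median summit pileup, the number of fragments covering the summit, was 14 and 7 in atRA replicates 1 and 2. Scaling by the ratio of backgrounds takes pileups to rise in proportion to background. The medians of 14 and 7 did not, over backgrounds of 2.17 and 0.606. The scaled values here and below are therefore not predictions of what another library would hold. On the scale of control replicate 1, the pileups of atRA replicate 2 had a median of 4.56. At 54.1% of these sites the scaled value fell below 5, the pileup that at least 95% of that library's own peaks reached or passed. Scaled to control replicate 2, none fell below its corresponding pileup of 6. That outcome was fixed in advance, since even the lowest called pileup of atRA replicate 2, at 4, scales to above 6. From atRA replicate 1 the shares were 92.8% for control replicate 1 and 56.2% for control replicate 2. In the other direction, the 1191 control-only sites without an atRA peak had median pileups of 6 and 9 in control replicates 1 and 2. None of their scaled pileups fell below the corresponding value of an atRA library, except for 17.9% of the sites when control replicate 2 was scaled to atRA replicate 2. Only that scaling could give values below, since in the others even the lowest called control pileup scales to above the value. The absence of low values there therefore says nothing about these sites. The values that at least 95% of peaks reached or passed are not detection limits. Peaks were called down to pileups of 7 and 4 in atRA replicates 1 and 2, and of 4 and 5 in control replicates 1 and 2.

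The strongest sites were called in both treatments. Sites were ranked by the authors' p within each list, averaged over the 2 lists of the group. All of the 100 strongest atRA sites were shared, as were 469 of the strongest 500 (93.8%) and 881 of the strongest 1000 (88.1%). The share was 49.9% of the strongest 5000 atRA sites. Of the control sites, all of the strongest 100 were shared, as were 499 of the strongest 500 (99.8%), 978 of the strongest 1000 (97.8%) and 66.9% of the strongest 5000. Among the strongest 1000 sites, 21 of the atRA sites held no control peak at all, against 0 of the control sites without an atRA peak. In the plot of called shares by strength, the share beyond the strongest 100 sites was lower for the shorter list of the other treatment. Of the strongest 5000 atRA sites, 56.0% held a peak of control replicate 1 and 82.7% one of control replicate 2. Of the strongest 5000 control sites, 90.5% held a peak of atRA replicate 1 and 66.9% one of atRA replicate 2.

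**Figure D2:**
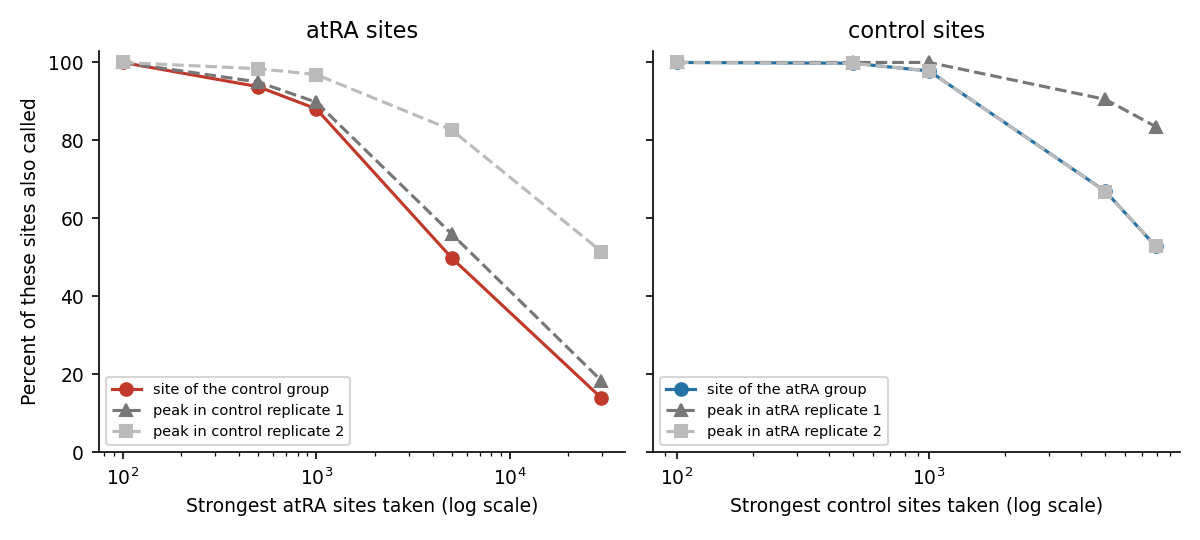
Percent of the strongest atRA sites (left) and control sites (right) that are also a site of the other treatment or hold a peak of each of its libraries, against the number of strongest sites taken (log scale). All curves start at 100% for the strongest 100 sites and end at 13.9% shared for all atRA sites and 52.8% shared for all control sites.

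Within the lists, shared sites stood far higher than the others. Where a site held several peaks of a list, the strongest was taken for ranks, pileups, peak widths and summit distances. A wider site can hold more peaks to choose from. The median peak so taken in a shared site ranked at 1.55% and 6.83% from the top of atRA replicates 1 and 2. In control replicates 1 and 2 it ranked at 19.6% and 5.56% from the top. In atRA-only sites the median peak ranked at 22.8% and 43.1% in atRA replicates 1 and 2. In control-only sites it ranked at 51.5% and 41.9% in control replicates 1 and 2. Pileups had the same order. At shared sites the median summit pileup was 38 and 15 in atRA replicates 1 and 2, and 9 and 16 in control replicates 1 and 2. The medians were 15 and 8 at atRA-only sites in the atRA libraries, and 7 and 10 at control-only sites in the control libraries. These are descriptions of the classes, since a strong site is more easily called in every list.

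The leading shared site lay on chromosome 20, 4437640 to 4438065 (GRCz10/danRer10 coordinates, as in all that follow), and ranked first in each of the 4 lists. Its fold enrichment in the authors' lists was 26.6 and 34.3 in atRA replicates 1 and 2, and 35.5 and 33.9 in control replicates 1 and 2. Its summit pileups were 216 and 208 fragments with atRA, against 196 and 255 in controls. The treatments overlapped in both measures, and the pileups were not scaled for the unlike backgrounds of the libraries. The next sites by mean rank were chromosome 4, 57548151 to 57548669, and chromosome 17, 53292579 to 53292887. They were followed by chromosome 5, 825997 to 826752, and chromosome 18, 13162189 to 13162448. Each of these 5 sites was among the first 6 of every list. Each also held a peak in all 16 other libraries of the series, which use other antibodies or other stages. A peak there was thus not particular to Raraa. Over all shared sites, 9.0% held a peak in all 16.

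The leading atRA-only sites without a control peak stood lower in the lists. The best by mean rank, on chromosome 11, 23575227 to 23575730, had 67 and 28 fragments at its summit and ranked 368 and 538 in atRA replicates 1 and 2. The site on chromosome 14, 42507819 to 42508340, had 77 and 39 fragments, and that on chromosome 21, 17696056 to 17696804, had 77 and 31. The site on chromosome 7, 25107995 to 25109020, had 74 and 41 fragments and was the widest of the 5 at 1026 bp. The site on chromosome 23, 13883531 to 13884051, had 72 and 24 fragments. Scaled by background, the pileups of the 5 sites would be 12.2 to 26.7 in control replicate 1 and 28.6 to 62.7 in control replicate 2, above the values of 5 and 6 that at least 95% of the peaks of those lists reached or passed. Any called peak of atRA replicate 2 would scale to above the 6 of control replicate 2. The 5 sites were also picked for their rank in the atRA lists, so high scaled values follow largely from the choice. No conclusion is drawn from them. The 5 sites held peaks in 9 to 12 of the 16 other libraries, against a median of 3 over all 13308 such sites. All 5 held a peak in both Hoxb1b libraries and both Sox3 libraries from atRA embryos, in Sox3 control replicate 2 and in Raraa replicate 1 at 5 somites. Over all such sites these shares were 36.0% and 30.7% for Hoxb1b and 44.7% and 44.0% for Sox3 with atRA. They were 35.1% for Sox3 control replicate 2 and 26.2% for Raraa replicate 1 at 5 somites. The 5 sites were picked for their rank, and the part of strength in these counts was not tested.

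The leading control-only sites without an atRA peak were weak. The best, on chromosome 12, 14535585 to 14535876, had 8 and 15 fragments at its summit and ranked 2305 and 2391 in control replicates 1 and 2. Chromosome 5, 41488905 to 41489294, had 9 and 14 fragments, and chromosome 25, 6999921 to 7000192, had 8 and 13. Chromosome 14, 26784942 to 26785316, had 7 and 16 fragments, and chromosome 7, 49607052 to 49607304, had 8 and 14. Their pileups, over backgrounds of 0.394 and 0.927 in the controls, were all below those of the 5 atRA-only sites, counted over backgrounds of 2.17 and 0.606. Scaled by background, they would be 30.5 to 49.6 in atRA replicate 1 and 8.50 to 13.8 in atRA replicate 2, above the values of 9 and 5 that at least 95% of the peaks there reached or passed. Any called control peak would pass these values in every scaling except that of control replicate 2 to atRA replicate 2. In that scaling too, the sites had been picked for their rank in the control lists, so no conclusion is drawn. The 5 sites held peaks in 1 to 8 of the 16 other libraries, against a median of 2 over all 1191 such sites.

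Shared sites were the widest. Their median width was 574 bp (quartiles 417 and 771), against 346 bp for atRA-only sites (263 and 471) and 284 bp for control-only sites (231 and 357). A width over 1000 bp was reached by 411 shared sites (9.94%), 269 atRA-only sites (1.05%) and 4 control-only sites (0.107%). Without any peak of the other treatment, the medians were 307 bp for atRA-only and 262 bp for control-only sites. A site merges the peaks of its own group, so its width depends on both lists of that group. Shared sites were measured as atRA sites, so their widths come from the atRA lists and those of control-only sites from the control lists. All control sites, shared or not, had a median of 327 bp, with 126 (1.59%) over 1000 bp. All atRA sites had a median of 366 bp, with 680 (2.29%) over 1000 bp. Single peaks, the strongest of a list in each site, had the same order within a list. In the strongest 25% of atRA replicate 2, peaks in shared sites had a median of 410 bp and those in atRA-only sites 246 bp, and in its weakest 25% 189 bp and 178 bp. In the strongest 25% of control replicate 1 the medians were 178 bp in control-only sites and 261 bp in shared sites, and in its weakest 25% 154 bp and 172 bp.

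Over all deposited peaks the treatments had similar widths. The median peak width was 180 and 185 bp in atRA replicates 1 and 2, and 161 and 186 bp in control replicates 1 and 2. The log2 ratio was 0.08 (p = 1, exact permutation test, two-sided, adjusted over 4 tests 1). Each list has a narrowest width that many peaks share, at 121 and 150 bp with atRA and 138 and 147 bp in controls. It held 13.1% and 22.1% of the peaks of atRA replicates 1 and 2, and 26.3% and 17.7% of those of control replicates 1 and 2. Taking the 10000 strongest peaks of each list moved the log2 ratio to 0.73, with medians of 460 and 277 bp with atRA and 175.5 and 264 bp in controls. There the groups did not overlap and p was 0.33 by the exact permutation test, the smallest it can give. An equal number cuts the lists at unlike strengths. The lowest summit pileup kept was 20 and 9 in atRA replicates 1 and 2, and 6 and 12 in control replicates 1 and 2. At q of at most 1e-05 the log2 ratio was 0.33, with 274 bp in both atRA libraries and 211 and 225 bp in control replicates 1 and 2. There too the lowest pileups kept were unlike, at 14 and 9 in atRA replicates 1 and 2 and 8 and 10 in control replicates 1 and 2.

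**Figure D3:**
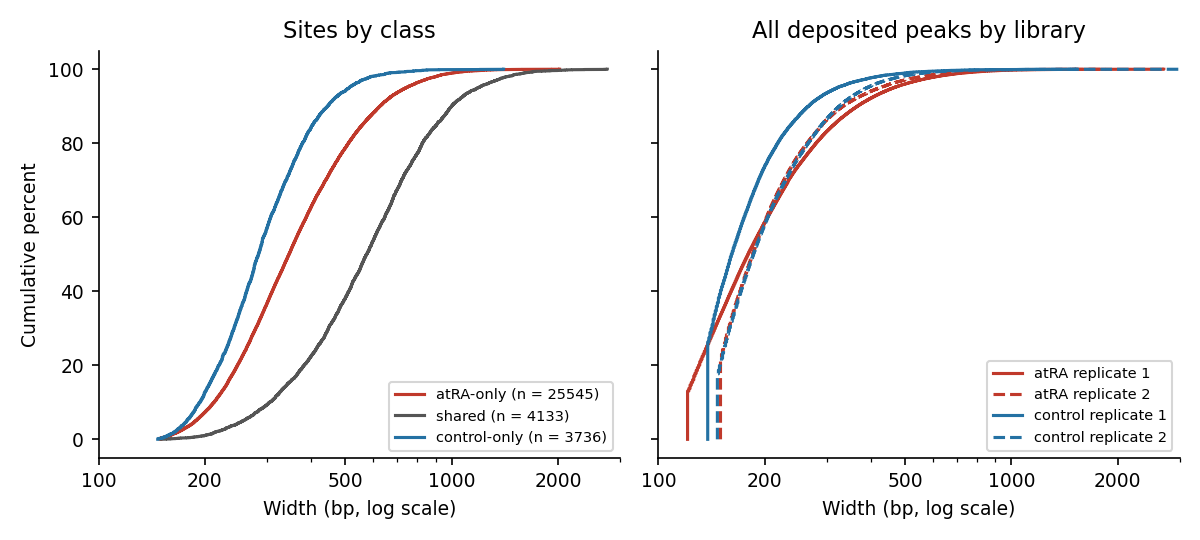
Cumulative percent of Raraa sites by class (left) and of all deposited peaks by library (right) against width in bp (log scale). Control-only sites are the narrowest (median 284 bp), atRA-only sites lie between (346 bp) and shared sites, measured as atRA sites, are the widest (574 bp). The libraries differ mainly in control replicate 1 (161 bp).

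Summits of the libraries fell closest together in shared sites. The median distance between the summits of the 2 atRA libraries was 55 bp in shared sites and 76 bp in atRA-only sites. Between the 2 control libraries it was 76 bp in control-only sites and 70 bp in shared sites. Between treatments, shared sites had medians of 64 and 56 bp for atRA replicate 1 with control replicates 1 and 2, and of 75 and 72 bp for atRA replicate 2 with control replicates 1 and 2. The distances of atRA replicate 1 lay between those of the replicate pairs in shared sites, and those of atRA replicate 2 lay slightly above them. Summits of the atRA libraries lay within 50 bp of each other in 47.1% of shared sites and 35.7% of atRA-only sites, and those of the control libraries in 35.5% of control-only sites and 40.9% of shared sites.

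Neighbouring peaks lay 3514 and 14011 bp apart (medians) in atRA replicates 1 and 2, and 32153 and 6399 bp apart in control replicates 1 and 2. The distances followed the peak numbers. The log2 ratio was -1.03 (p = 0.667, exact permutation test, two-sided, adjusted over 4 tests 0.889), and without control replicate 1 it was 0.133. With the 10000 strongest peaks of each list it was -0.55, from medians of 43602 and 56784 bp with atRA and 74934 and 70363 bp in controls. These did not overlap, at the smallest p the test can give (p = 0.33, exact permutation test). The peaks are those used for the widths, with the same unlike lowest pileups.

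Shared sites were more clumped along the chromosomes than sites of either treatment alone. The median gap to the next site of the same class was 29414 bp for atRA-only sites, 213780 bp for control-only sites and about 116480 bp for shared sites. A class with more sites has shorter gaps, so the median was also set against the mean gap. This ratio was 0.565 for atRA-only sites, 0.596 for control-only sites and 0.359 for shared sites, where lower values mean more uneven spacing. Gaps under 10 kb made up 21.6% in atRA-only, 3.75% in control-only and 17.6% in shared sites, although shared sites were far fewer than atRA-only sites. The nearest shared site lay a median of 113769 bp from an atRA-only site, 116672 bp from a control-only site and 42603 bp from another shared site. It lay within 10 kb of 8.93% of atRA-only, 9.10% of control-only and 26.8% of shared sites. Shared sites also ranked highest within the lists, and the part of strength in these spacings was not tested. Sites chained by gaps under 10 kb formed 290 clusters of 5 or more in the atRA group, with 6.63% of its sites, and 45 such clusters in the control group, with 5.34% of its sites.

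The largest chain of shared sites lay on chromosome 10, 16825944 to 16882043, where 27 shared sites fell in 56.1 kb. It held 48 and 32 peaks in atRA replicates 1 and 2 and 33 and 43 in control replicates 1 and 2. Median summit pileups were 123.5 and 77 with atRA and 59 and 128 in controls. As listed, the treatments overlapped in both measures. The pileups were counted over backgrounds of 2.17 and 0.606 with atRA and 0.394 and 0.927 in controls and were not scaled. Their overlap is therefore one of unscaled counts. Others were chromosome 2, 19774046 to 19833949, with 25 shared sites, chromosome 4, 28562659 to 28614797, with 22, and chromosome 17, 45194730 to 45240865, with 20. A chain of 16 lay on chromosome 21, 25805346 to 25830157. In the chromosome 10 stretch the 16 other libraries held 21 to 45 peaks each, and in the chromosome 2 stretch 18 to 41. These stretches were therefore dense in peaks with every antibody and at every stage of the series. The largest chain of control sites outside this set was on chromosome 8, 34831360 to 34879169, with 18 control sites, of which 13 were shared.

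Sites were found on every chromosome, with the lowest density of atRA-only and control-only sites on chromosome 4. The spans used were the furthest peak end in any list, 1340 Mb in all. There were 19.1 atRA-only sites per Mb, from 13.7 on chromosome 4 to 22.6 on chromosome 13. Control-only sites had 2.79 per Mb, from 1.77 on chromosome 4 to 3.73 on chromosome 7. Shared sites had 3.08 per Mb, from 2.30 on chromosome 9 to 3.77 on chromosome 7. On chromosome 4, atRA-only sites fell to between 6.4 and 7.2 per Mb over 30 to 70 Mb, against 19.4 to 25 per Mb over the 3 stretches of 10 Mb before it. Control-only sites had 0.8 to 1.1 per Mb in that stretch and 2.3 to 4 before it, and shared sites 1.2 to 2.6 and 3.1 to 5. The share of peaks on chromosome 4 was 3.44% and 3.89% in atRA replicates 1 and 2, and 3.31% and 3.56% in control replicates 1 and 2. The difference of 0.225 percentage points was within the replicate spread (two-sided exact permutation test, p = 0.667, adjusted over 4 tests 0.889). Chromosome 4 makes up 5.72% of the span, and the 16 other libraries held 3.28% to 4.05% of their peaks on it. A low share there was thus not particular to Raraa.

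**Figure D4:**
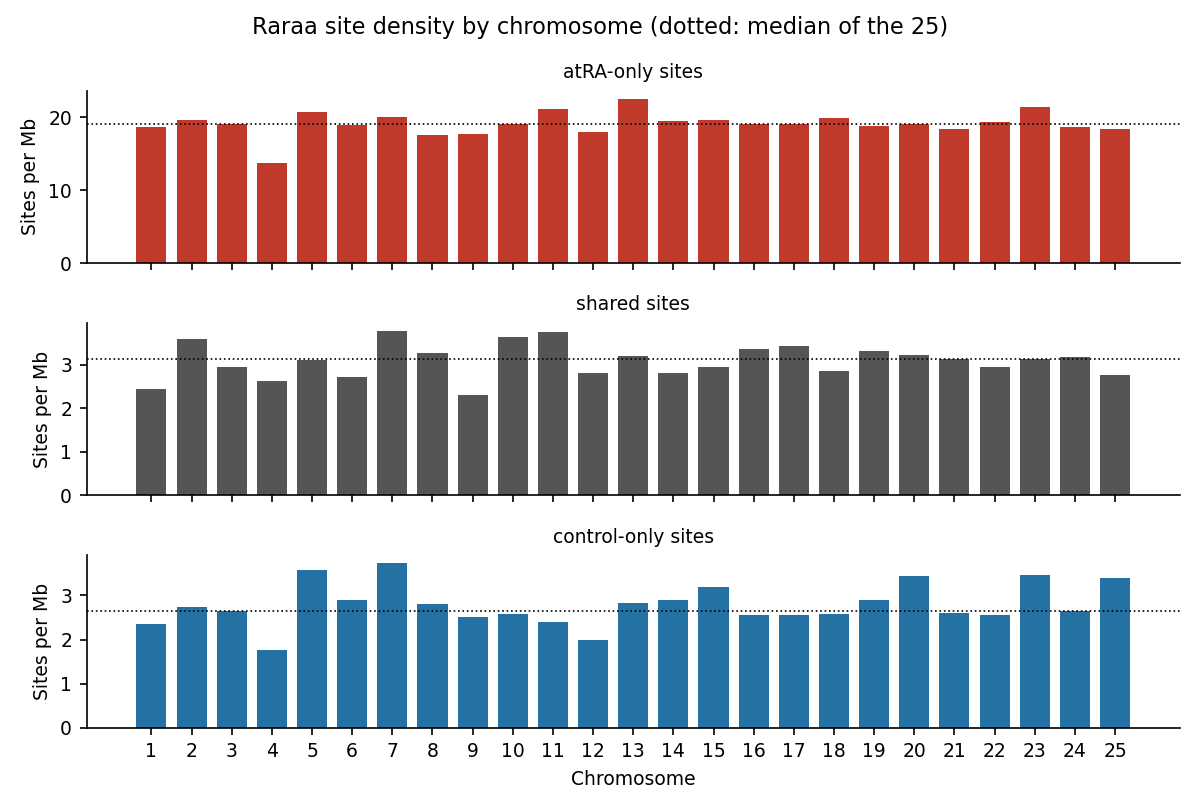
Sites per Mb on each of the 25 chromosomes for atRA-only (top), shared (middle) and control-only sites (bottom), with the median of the chromosomes dotted. Chromosome 4 is lowest for atRA-only (13.7 per Mb) and control-only sites (1.77 per Mb), and chromosome 7 is highest for shared (3.77 per Mb) and control-only sites (3.73 per Mb).

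All classes were denser near the chromosome ends. The outermost 2 Mb at each end make up 7.46% of the span. They held 2848 atRA-only sites (11.1%), 428 control-only sites (11.5%) and 546 shared sites (13.2%). The density there was 1.56 times that of the inner part for atRA-only sites, 1.6 times for control-only sites and 1.89 times for shared sites. It was higher at the ends on 25 of 25 chromosomes for atRA-only, 23 for control-only and 24 for shared sites. For all peaks the ratio was 1.26 and 1.40 in atRA replicates 1 and 2, and 1.49 and 1.47 in control replicates 1 and 2. In windows of 1 Mb, the most atRA sites, 82, lay at 23 to 24 Mb of chromosome 3, against a median of 21, and 25 control sites lay in the same window, against a median of 5.

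Shared sites were also the ones most often listed with the other antibodies and at the later stages. A site held a peak in a median of 5 of the 16 other libraries for atRA-only, 4 for control-only and 12 for shared sites. All 16 held a peak at 74 atRA-only sites (0.290%), 5 control-only sites (0.134%) and 372 shared sites (9.0%). None did at 2301 atRA-only sites (9.01%), 342 control-only sites (9.15%) and 9 shared sites (0.218%). Without a peak of the other treatment, the medians were 3 libraries for atRA-only and 2 for control-only sites. A wider site can take in more peaks, and shared sites were the widest. The part of width in these numbers, and in the shares that follow, was not tested.

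The share of sites with a peak of another library differed between antibodies and treatments. The atRA libraries of Sox3, a SoxB1 factor of early neural tissue, had the highest shares of the 16 in all 3 classes. They held a peak at 56.1% and 55.7% of atRA-only, 47.6% and 45.4% of control-only and 91.4% and 91.4% of shared sites. The Sox3 control libraries held one at 37.9% and 47.5% of atRA-only, 34.2% and 41.9% of control-only and 75.8% and 79.9% of shared sites. Hoxb1b, a Hox protein of the early hindbrain whose gene responds to retinoic acid, held a peak at 48.0% and 43.5% of atRA-only sites in its atRA libraries, against 16.6% and 18.4% in its control libraries. At control-only sites these values were 36.8% and 33.7% with atRA, against 16% and 21.1% in controls, and at shared sites 86.7% and 83.2% with atRA, against 44.8% and 43.9% in controls. The Hoxb1b shares were thus higher with atRA in all 3 classes of Raraa sites. Meis2b, a cofactor of Hox proteins, held a peak at 30.7% and 24.3% of atRA-only sites with atRA and at 13% and 17.2% in controls. At control-only sites the Meis2b shares overlapped, with 20.4% and 16.5% with atRA and 12.6% and 18.3% in controls, and at shared sites they were 69.1% and 60.7% with atRA and 36.9% and 42.9% in controls. The Sox3 atRA lists are the longest of the 16, with 135299 and 132311 peaks. The Hoxb1b lists are longer with atRA (86866 and 71640 peaks) than in controls (42278 and 58750 peaks). The Meis2b lists overlap in length, with 58690 and 43644 peaks with atRA and 28388 and 49654 in controls. The part of list length in the shares of all 3 antibodies was not tested.

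Raraa itself, in untreated embryos of later stages, listed the shared sites most often as well. At 5 somites its libraries held a peak at 37.7% and 36.9% of atRA-only sites, 37.6% and 37.6% of control-only sites and 81.3% and 80.0% of shared sites. At 24 hpf the shares were 33.7% and 40.8% of atRA-only, 30.7% and 40.0% of control-only and 73.6% and 81.6% of shared sites. As whole classes, atRA-only and control-only sites were thus listed at 5 somites at nearly the same rate. The classes differ in make-up, since 52.1% of atRA-only but 31.9% of control-only sites held no peak of the other treatment. Among the sites without such a peak, the 5 somites libraries held one at 26.2% and 25% of atRA-only sites. For control-only sites these shares were 20.9% and 22.1%. Among sites with a peak of the other treatment, the shares were 50.2% and 49.8% of atRA-only and 45.4% and 44.9% of control-only sites. Within both parts the atRA-only shares were therefore higher.

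**Figure D5:**
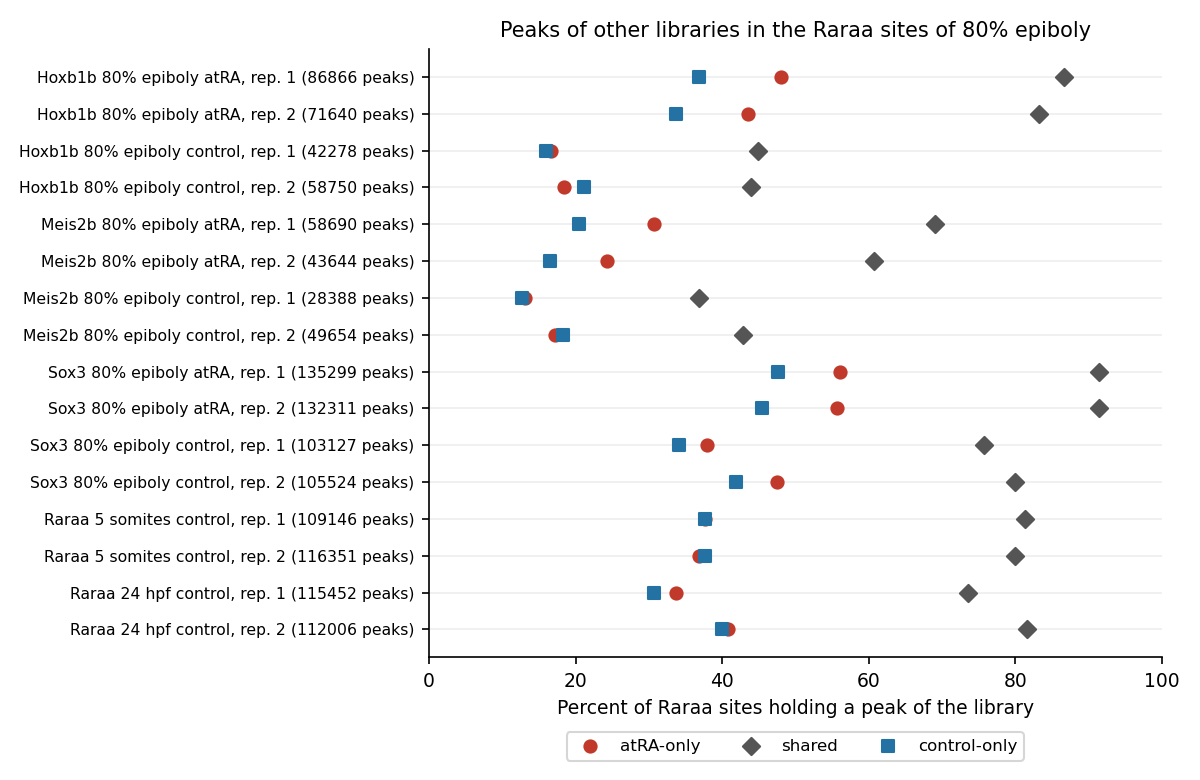
Percent of the atRA-only, shared and control-only Raraa sites of 80% epiboly that hold a peak of each of the 16 other libraries, with the number of peaks of each library in brackets. Shared sites lie highest in every library, between 36.9% in Meis2b control replicate 1 and 91.4% in both Sox3 atRA libraries.

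The shares were also set out by strength in 1 library. Sites were split into 4 bins of about equal size by the rank of their peak in atRA replicate 2, and the shared part of the atRA sites was 36.1%, 9.11%, 6.40% and 3.76% from the strongest to the weakest bin. In the strongest bin, Sox3 control replicate 1 held a peak at 56.7% of atRA-only and 80.4% of shared sites, and in the weakest bin at 28.6% and 58.0%. Raraa replicate 1 at 5 somites held one at 53.9% of atRA-only and 87.4% of shared sites in the strongest bin, and at 31.3% and 61.3% in the weakest. By the rank in control replicate 1, the same 5 somites library held a peak at 49.2% of control-only and 89.9% of shared sites in the strongest bin, and at 35.2% and 73.8% in the weakest. The values were higher for shared sites in each of these bins, but a bin holds a range of strengths and does not match the other libraries. Shared sites were also wider within the bins. By atRA replicate 2, their median width was 617 bp against 445 bp for atRA-only sites in the strongest bin, and 436.5 bp against 319 bp in the weakest.

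The division between atRA-only, shared and control-only sites was also set beside that of the other antibodies by the same rule. Shared sites made up 12.4% of the Raraa sites, against 7.63% of 35418 Hoxb1b sites, 12% of 19689 Meis2b sites and 41.3% of 73925 Sox3 sites. The atRA-only part was 76.4% of the Raraa sites, against 81.2% with Hoxb1b, 71.4% with Meis2b and 44.2% with Sox3. A site needs a peak of both replicates, so these parts depend on the lengths of the lists. The Sox3 lists were near equal between replicates, at 135299 and 132311 peaks with atRA and 103127 and 105524 in controls. The Raraa lists were not, at 254915 and 59938 with atRA and 23920 and 131936 in controls. The part of list length in the differences between antibodies was not tested. Lists of equal length changed both the Raraa numbers and their division. With the 23920 strongest peaks of each Raraa list, the length of control replicate 1, there were 6050 atRA-only, 1372 control-only and 2402 shared sites. The shared sites then made up 28.4% of the atRA sites, against 13.9% with all peaks, and the atRA-only sites outnumbered the control-only sites by 4.41 times, against 6.84 times with all peaks. That ratio did not fall with every choice of peaks. It was 7.52 with the 10000 strongest peaks of each list and 15.1 at q of at most 1e-05. At that q the lists were again unlike in length. Peaks kept numbered 57246 and 10389 in atRA replicates 1 and 2, against 3621 and 34384 in control replicates 1 and 2. The shorter list, which caps the sites of a group, was thus control replicate 1, and the part of list length in this ratio was not tested. Leaving out control replicate 1 gave 14395 atRA-only and 115045 control-only sites, but there every peak of control replicate 2 counts as a control site while an atRA site still needs both replicates.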

How the data were processed

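ChIP-seq peak lists of 20 libraries from whole zebrafish embryos were analysed. The submitters' processing notes name Bowtie, SAMtools, MACS2 and the builds GRCz10 and danRer10, without roles. Versions, duplicate handling and input controls are not given in the sources used here. Each deposited list comes from 1 library and gives, per peak, the authors' fold enrichment (a ratio over background), the authors' −log10 p and −log10 q, a deposited score and a summit, and all q lay under 0.05. Peaks outside the assembled chromosomes, 2.02% to 2.56% of each of the 4 Raraa lists, were left out.

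Pileup and background were solved from fold and p for 100% of the peaks, to within 0.002 in −log10 p. The smallest backgrounds (0.001 quantile) served as depth index. Site calling and this step were tested on simulated data, whose pileups covered neither the lowest nor the highest called ones. Named sites are, for each class, the 5 whose mean within-list rank was best. The members, lists and stretches were chosen with earlier results of these data known. Library values were compared by exact permutation tests, two-sided, adjusted by the Benjamini-Hochberg method over 4 tests. Alternatives were stricter peaks, equal numbers of peaks, a larger overlap, a replicate block and leaving out each library. Motifs, promoters and gene lists were not analysed here. Python 3.11.15, numpy 2.4.6, pandas 2.3.3, scipy 1.17.1 and matplotlib 3.10.9 were used.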

Additional observations from a re-analysis of the deposited data

How the results depend on the processing

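Numbers of sites depended on which peaks entered. For atRA-only, control-only and shared sites, peaks with q of at most 1e-05 gave 5708, 378 and 1393, and the 10000 strongest peaks of each list gave 3585, 477 and 1500. As many of the strongest peaks as control replicate 1 holds, chosen after seeing the data, gave 6050, 1372 and 2402. Requiring no peak at all in the other treatment left 13308 atRA-only and 1191 control-only sites. An overlap of 50% of the shorter interval stayed within 1.5 times of every number. With 1 library left out, all peaks of the remaining library of that treatment count as its sites, and the numbers ranged from 14395 (without control replicate 1) to 248030 (without atRA replicate 2) for atRA-only sites. They ranged from 1304 (without atRA replicate 2) to 115045 (without control replicate 1) for control-only sites and from 4403 (without atRA replicate 1) to 15283 (without control replicate 1) for shared sites. A number moved by more than 1.5 times without each of the 4 libraries, for atRA-only sites without atRA replicate 1 to 55535, and for control-only sites without control replicate 2 to 18095.

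With 1 library left out, the log2 ratio ranged from -0.0941 to 2.37 for peak number, from -0.0275 to 0.181 for median width and from -2.20 to 0.133 for the distance between peaks, and each changed sign without control replicate 1. The chromosome 4 difference ranged from -0.00142, without atRA replicate 2, to 0.452 percentage points, and was -0.125 at q of at most 1e-05. The causes were not tested. With a replicate block, by exact sign flips over 4 arrangements that cannot give p under 0.5, the values were 1.14 (p = 1), 0.08 (p = 1), -1.03 (p = 1) and 0.225 points (p = 0.5). The labels do not say that equal numbers mark a shared clutch or day, and with 2 pairs the block changed no call. The reads behind each list are unknown, so the part of depth in the absence of a site could not be measured.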

Other observations

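The control libraries held a larger part of their peaks on chromosome 7 than any other library of the series, a pattern singled out after its values were seen. The share was 5.70% and 5.76% in atRA replicates 1 and 2, and 6.98% and 6.46% in control replicates 1 and 2. In the 16 other libraries it ranged from 5.29% to 5.98%, with a median of 5.77%. The first 55 Mb held 4.39% and 4.48% of the atRA peaks and 5.59% and 5.09% of the control peaks, against 4.00% to 4.82% elsewhere. The remainder of the chromosome held 1.31% and 1.27% with atRA and 1.38% and 1.37% in controls, against 1.13% to 1.36% in the other libraries, so both controls lay above all of these in both parts. At q of at most 1e-05 chromosome 7 held 5.95% and 6.21% with atRA and 6.66% and 6.56% in controls. The controls again lay above the highest of the other libraries (6.203%), but so, narrowly, did atRA replicate 2 (6.208%). Among the 10000 strongest peaks the controls, at 6.72% and 6.56%, no longer exceeded that highest value, which was 6.72%.

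Chromosome 5 held 5.65% and 5.71% of the peaks of atRA replicates 1 and 2, and 6.27% and 5.92% of those of control replicates 1 and 2, against 5.22% to 5.73% in the other libraries. At q of at most 1e-05 the treatments overlapped there, with 5.68% and 5.78% with atRA and 5.58% and 5.94% in controls. On chromosome 20 both controls, at 4.73% and 4.34%, also lay above the other libraries (4.06% to 4.33%). So did atRA replicate 2 at 4.35%, while atRA replicate 1 held 4.25%. Among the 10000 strongest peaks chromosome 20 held 3.66% and 4.08% with atRA and 4.61% and 4.49% in controls. At q of at most 1e-05 it held 4.16% and 4.08% with atRA and 4.20% and 4.37% in controls. The 50 Mb and 55 Mb limits were set from these data.

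Across the 25 chromosomes, the share was higher in both atRA libraries on 8 (32%) and higher in both control libraries on 5 (20%). Each such comparison had the smallest p that 2 libraries against 2 allow (exact permutation p = 0.33, adjusted over the 25 chromosomes 0.641). At q of at most 1e-05 it was higher in both atRA libraries on 3 chromosomes (12%) and higher in both control libraries on 4 (16%), and chromosomes 10 and 15 changed sides. Chromosome 10 held 3.51% and 3.51% with atRA and 3.34% and 3.50% in controls over all peaks, against 3.49% and 3.39% with atRA and 3.98% and 3.51% in controls at the stricter q.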
